A study of Mus musculus with 18 samples.

Results

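The genes Atp8b4, Pdlim4, App and Arhgap29 stood far lower in wild-type regulatory T (Treg) cells than in conventional CD4 T cells on the arrays described here. They are 4 of the 18193 genes measured, and they were chosen by the size of that fall on the WT GFP and WT hCD2 arrays against Tconv, so the fall itself is a description and carries no test. Ranked by the wild-type fall over all genes, Atp8b4 was in place 2, Pdlim4 in place 3, App in place 4 and Arhgap29 in place 8. Klrd1 fell further than all of them (-4.91 on the log2 scale), Lypd6b (-4.01), Hs3st3b1 (-3.59) and Pde3b (-3.50) fell further than Arhgap29 (-3.20), and the next gene after it was Il1rl2 (-3.02). The question addressed was how far Treg cells with a mutant Foxp3 protein keep these genes low.

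Freshly sorted CD4 T cells of lymph nodes and spleen, from mice of the B6;129 strain, were profiled on 18 one-colour GeneChip arrays. All mice were heterozygous at Foxp3: one allele carried an hCD2 reporter and the other, wild-type in every mouse, carried GFP. Treg cells positive for hCD2 used Foxp3 R397W, I363V or A384T (3 arrays each) or wild-type Foxp3 (WT hCD2, 2 arrays). GFP-positive Treg cells used wild-type Foxp3 and came from A384T mice (WT GFP in A384T mice, 3 arrays) or from wild-type mice (WT GFP, 2 arrays), and cells negative for both reporters from wild-type mice were the conventional T cells (Tconv, 2 arrays). Each mutant cell population therefore developed in a mouse that also held wild-type Treg cells, and Tconv cells were taken from wild-type mice alone. The labels give no age and do not say which arrays come from different animals. The p-values thus reflect array-to-array spread, possibly technical, and the small number of arrays limits the precision of each value.

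Foxp3 is the transcription factor that defines Treg cells. It binds DNA through a forkhead domain, which holds all of the residues substituted here, and works both to raise Treg genes and, with partner proteins, to keep genes of conventional T cells low. Among the 4 genes, Atp8b4 belongs to the P4-type ATPases, which move phospholipids from the outer to the inner leaflet of membranes, and Pdlim4 is an adaptor with a PDZ and a LIM domain that binds alpha-actinin at the actin cytoskeleton. App is the amyloid precursor protein, a transmembrane protein cut by secretases, and Arhgap29 is a GTPase-activating protein that acts downstream of Rap proteins in human endothelial cells.

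The promoters of the 4 genes are shown because the genes stand low together in cells that use a DNA-binding repressor. Each is the RefSeq window of 300 bases around the gene's start (build GRCm38.p6), written 5′ to 3′ along the gene. Capitals mark matches on either strand to the forkhead motif TGTTTAC, the AP-1 motif TGANTCA, the Runx motif TGTGGT, the NFAT motif GGAAAA and the GC box GGGCGG, and no match overlaps one of another motif. A pair of the Arhgap29 GC boxes overlap each other.
Atp8b4 (chr2:126491504-126491803, minus strand): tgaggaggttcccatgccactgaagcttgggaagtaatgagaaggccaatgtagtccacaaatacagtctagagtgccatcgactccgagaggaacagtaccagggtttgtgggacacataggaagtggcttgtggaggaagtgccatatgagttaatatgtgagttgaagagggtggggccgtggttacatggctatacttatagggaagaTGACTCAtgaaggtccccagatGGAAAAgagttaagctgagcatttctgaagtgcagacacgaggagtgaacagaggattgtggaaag
Pdlim4 (chr11:54068968-54069267, minus strand): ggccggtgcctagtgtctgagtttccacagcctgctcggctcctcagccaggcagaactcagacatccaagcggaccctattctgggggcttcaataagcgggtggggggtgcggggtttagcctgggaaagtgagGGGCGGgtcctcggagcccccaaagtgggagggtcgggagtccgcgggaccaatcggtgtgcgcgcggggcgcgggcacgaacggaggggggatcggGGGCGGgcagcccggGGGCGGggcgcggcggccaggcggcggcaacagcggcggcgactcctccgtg
App (chr16:85173658-85173957, minus strand): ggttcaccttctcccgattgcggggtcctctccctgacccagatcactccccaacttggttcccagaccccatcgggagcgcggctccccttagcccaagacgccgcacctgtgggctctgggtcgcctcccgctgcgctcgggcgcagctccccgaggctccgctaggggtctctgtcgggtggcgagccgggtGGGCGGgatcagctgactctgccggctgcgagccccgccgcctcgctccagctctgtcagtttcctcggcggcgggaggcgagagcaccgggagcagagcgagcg
Arhgap29 (chr3:121952979-121953278, plus strand, the first of its 2 RefSeq windows): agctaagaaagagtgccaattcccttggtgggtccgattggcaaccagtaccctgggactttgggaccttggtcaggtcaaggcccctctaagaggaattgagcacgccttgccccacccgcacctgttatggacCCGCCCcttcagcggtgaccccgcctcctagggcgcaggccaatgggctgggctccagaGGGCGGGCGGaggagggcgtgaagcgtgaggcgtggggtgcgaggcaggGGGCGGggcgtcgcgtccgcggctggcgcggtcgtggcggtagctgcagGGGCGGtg

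The Atp8b4 window held 1 AP-1 match and 1 NFAT match shortly before the start, and no GC box. The Pdlim4, App and Arhgap29 windows held GC boxes (3, 1 and 5 matches) and none of the other motifs, and the forkhead and Runx motifs matched in 0 of the 4 windows. Over 27025 RefSeq promoter windows of the same length, one for each gene, the GC box was present in 35.9%, the NFAT motif in 23.6%, the Runx motif in 16.9%, the AP-1 motif in 7.9% and the forkhead motif in 3.5%. These letters are a description of the windows and locate no binding site.

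The authors' log2 values are centred so that the 2 Tconv arrays average 0 at every probe set. A value of -4 therefore means 4 log2 units below Tconv cells, and absolute levels, and with them the background of the array, cannot be read. Whether the lowest values of the 4 genes lie at background, which would limit how far they can differ and what a share near 100% shows, is therefore not known. A lower share of cells with the transcript and less transcript in each cell cannot be told apart in such bulk RNA. Foxp3 itself was at 6.376 to 6.996 in R397W, 6.51 to 7.11 in I363V, 7.22 to 7.53 in A384T, 7.53 to 7.59 in WT GFP cells of A384T mice, and 7.06 to 7.42 in WT hCD2 and WT GFP cells, against -0.07 and 0.07 in Tconv cells. The R397W and I363V arrays thus lay below the A384T arrays without overlap, and the part of the Foxp3 level in the results was not tested. The array medians over all probe sets ran from -0.0626 to 0.0164. Markers of dendritic cells and of CD8 T and NK cells moved with the fall from Tconv to Treg cells: over 5 dendritic cell markers the array means ran from -0.51 to -0.42 in WT hCD2 and WT GFP cells against -0.28 and 0.28 in Tconv cells, with Itgax and Flt3 called lower, and over 6 CD8 T and NK markers from -0.51 to -0.40 against -0.08 and 0.08, with Eomes and Prf1 called lower and a list median of -0.09. Of 6 B cell markers, Cd79b alone was called, higher in wild-type Treg cells (2.21 ± 0.26), while the list median was -0.165. Between wild-type Treg and Tconv cells 3.81% of all genes were called higher and 2.03% lower. Whether any marker was at 0 cannot be read from centred values, and the part of these cells in the fall was not tested.

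Atp8b4 fell furthest of the genes in wild-type Treg cells, and its arrays separated the mutants. Its log2 values relative to Tconv were -3.25, -2.48 and -3.32 in R397W cells. I363V cells had -3.40, -3.78 and -3.63, and A384T cells had -5.07, -4.86 and -4.85. Wild-type Treg cells had -5.03, -4.83 and -4.87 (WT GFP in A384T mice), -4.71 and -4.58 (WT hCD2) and -4.87 and -4.66 (WT GFP), against -0.16 and 0.16 in Tconv cells. All R397W arrays lay above all I363V arrays, all I363V arrays lay above every A384T and wild-type Treg array, and all Treg arrays lay far below the Tconv arrays. A384T cells overlapped with the wild-type cells of A384T mice.

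Pdlim4 was likewise higher in R397W and I363V cells than in the other Treg groups. Its log2 values were -2.64, -3.40 and -2.93 in R397W cells, -3.56, -3.05 and -3.98 in I363V cells, and -4.22, -4.23 and -4.34 in A384T cells. They were -4.27, -4.76 and -4.76 in WT GFP cells of A384T mice, -4.37 and -4.33 in WT hCD2 cells and -4.45 and -4.62 in WT GFP cells, against 0.36 and -0.36 in Tconv cells. R397W and I363V arrays overlapped with each other, and all 6 lay above every A384T and wild-type Treg array. The A384T arrays overlapped with WT hCD2 and with WT GFP in A384T mice, and lay above both WT GFP arrays.

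App was far below Tconv on every Treg array. Its log2 values were -4.21, -2.97 and -4.44 in R397W cells, -4.20, -3.92 and -3.98 in I363V cells, and -4.15, -3.99 and -4.19 in A384T cells. They were -4.73, -4.23 and -4.50 in WT GFP cells of A384T mice, -3.89 and -4.61 in WT hCD2 cells and -4.39 and -4.30 in WT GFP cells, against 0.00 on both Tconv arrays. R397W array 2 stood above every other Treg array, and in the order of group means each Treg group overlapped with the next. Groups further apart in that order could still separate: all A384T and I363V arrays lay above all arrays of WT GFP cells in A384T mice.

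Arhgap29 fell least of the genes in wild-type cells. Its log2 values were -1.96, -1.49 and -2.38 in R397W cells, -2.00, -2.09 and -2.14 in I363V cells, and -3.22, -2.06 and -2.47 in A384T cells. They were -3.13, -2.64 and -2.75 in WT GFP cells of A384T mice, -3.49 and -3.39 in WT hCD2 cells and -2.82 and -3.10 in WT GFP cells, against -0.01 and 0.01 in Tconv cells. The WT hCD2 arrays were the lowest of all, 0.48 below WT GFP cells of the same kind of mouse as a difference of means, whereas for the other genes WT hCD2 was 0.09 to 0.18 above WT GFP. A384T cells had the widest spread (SD 0.59) and overlapped with I363V, with R397W and with the wild-type cells of A384T mice.

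**Figure D1:**
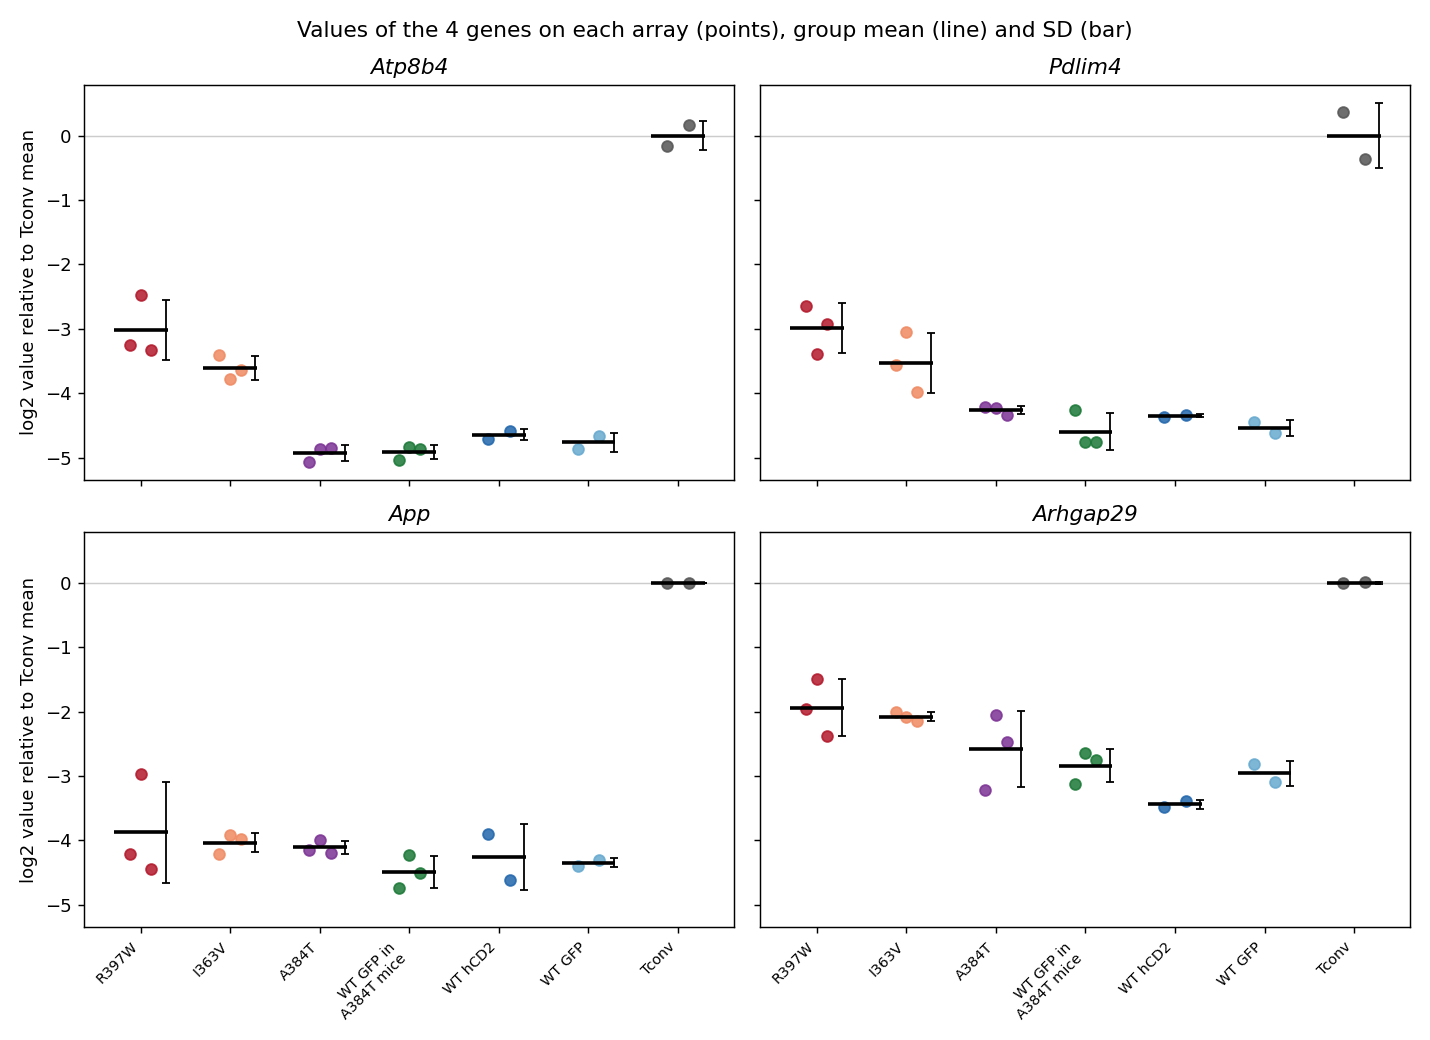
Log2 values relative to the Tconv mean (vertical axis) of the main probe set of Atp8b4, Pdlim4, App and Arhgap29 in 7 groups of sorted cells, with a point for each array, a line for the group mean and a bar for ± 1 SD. For Atp8b4 the R397W and I363V arrays (-3.78 to -2.48) lie above all A384T and wild-type Treg arrays (-5.07 to -4.58), and all Treg arrays lie below Tconv.

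The mutants were next set against the wild-type Treg cells of A384T mice and against each other. The wild-type fall for which the genes were picked used none of those arrays, although the choice of probe set did. Some genes with larger falls than Arhgap29 were passed over, with earlier results of these data known. Whether the mutant arrays had a part in that choice is not known, which limits what the p-values show. Differences ± SE and adjusted p are from a limma fit of all 18 arrays and 18193 genes. WT GFP cells of A384T mice carry the other reporter, and for R397W and I363V they also come from mice of another genotype, so that reporter, mice and mutation cannot be told apart there. The mutants share a reporter but come from mice of different genotypes, so mice and mutation cannot be told apart between mutants either.

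Against these wild-type cells, Atp8b4 was higher in R397W cells by 1.89 ± 0.19 (3.71-fold, adjusted p = 3.41e-05, limma) and in I363V cells by 1.31 ± 0.19 (2.47-fold, adjusted p = 0.00123). Pdlim4 was higher in R397W cells by 1.61 ± 0.24 (3.05-fold, adjusted p = 0.00104, limma) and in I363V cells by 1.07 ± 0.24 (2.09-fold, adjusted p = 0.0328). Both genes were higher on 3 of 3 arrays of each mutant than on any of these wild-type arrays. How many of all genes separate in this way was not counted, here or in the comparisons below, so such separation is a description. So 2 of 4 genes were called higher in either mutant, where of all genes 1.61% were called higher and 4.48% lower in R397W cells, and 0.335% were called higher in I363V cells (2.29% in either direction). The Pdlim4 call in I363V cells did not hold when only the groups compared were fitted (adjusted p = 0.106, limma), nor without WT GFP in A384T mice array 2 (0.98, adjusted p = 0.164) or array 3 (0.98, adjusted p = 0.149), nor without I363V array 1 (1.08, adjusted p = 0.091) or array 2 (0.83, adjusted p = 0.139).

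Arhgap29 and App did not pass against the same cells. Arhgap29 differed by 0.90 ± 0.25 in R397W cells (adjusted p = 0.0509, limma, 95% interval 0.36 to 1.44) and by 0.76 ± 0.25 in I363V cells (adjusted p = 0.204, interval 0.217 to 1.302), with no overlap between the groups in either case. Without R397W array 3 the R397W difference was 1.12 and passed (adjusted p = 0.0218). App differed by 0.62 ± 0.29 in R397W cells (adjusted p = 0.249, limma, interval -0.00 to 1.23) and by 0.45 ± 0.29 in I363V cells (adjusted p = 0.649, interval -0.17 to 1.07). The R397W value of App rested on array 2 and was 0.17 without it.

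Between A384T cells and WT GFP cells of A384T mice, 0 of 4 genes were called by limma, where 0.522% of all genes were called, 0.17% higher and 0.352% lower, and 915 genes had an unadjusted p under 0.05. The unadjusted p of the 4 genes ran from 0.189 to 0.931. Atp8b4 differed by -0.02 ± 0.19 (95% interval -0.41 to 0.38) and Arhgap29 by 0.25 ± 0.25 (-0.29 to 0.80). Pdlim4 differed by 0.33 ± 0.24 (-0.18 to 0.86) and App by 0.38 ± 0.29 (-0.24 to 0.998). Arrays of equal number deviate together in these groups, and with the number as a block, in a fit of only these groups, App passed (0.38 ± 0.09, adjusted p = 0.0489, limma). In that fit 1.81% of all genes were called higher and 3.42% lower. Within equal numbers A384T cells were higher by 0.59, 0.24 and 0.31. The other genes did not pass with the block (adjusted p = 0.123 to 0.947, limma), and Pdlim4 was higher within equal numbers by 0.05, 0.53 and 0.42.

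Set against A384T cells, which carry the same reporter, R397W cells had Atp8b4 higher by 1.91 ± 0.19 (3.75-fold, adjusted p = 4.89e-05, limma) and Pdlim4 higher by 1.27 ± 0.24 (2.42-fold, adjusted p = 0.00965). I363V cells had Atp8b4 higher by 1.32 ± 0.19 (2.50-fold, adjusted p = 0.00205, limma). Each of these was higher on 3 of 3 arrays, with no overlap, and each was called with any 1 array of the groups compared left out. That made 2 of 4 genes called higher in R397W cells, where 0.907% of all genes were called higher and 2.22% lower, and 1 of 4 in I363V cells, where 0.253% were called higher (1.14% in either direction). The Pdlim4 difference between I363V and A384T cells was 0.73 ± 0.24 without overlap and did not pass (adjusted p = 0.276, limma, 95% interval 0.21 to 1.25).

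Arhgap29 and App did not separate the mutants from A384T. Arhgap29 differed by 0.64 ± 0.25 in R397W cells (adjusted p = 0.22, limma, 95% interval 0.10 to 1.19) and by 0.51 ± 0.25 in I363V cells (adjusted p = 0.615, interval -0.04 to 1.05), and both groups overlapped with A384T. App differed by 0.24 ± 0.29 in R397W cells (adjusted p = 0.749, limma, interval -0.38 to 0.86) and by 0.07 ± 0.29 in I363V cells (adjusted p = 0.973, interval -0.54 to 0.69). Without R397W array 2 the App difference turned to -0.21.

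Between R397W and I363V cells 0 of 4 genes were called, as against 0.0824% of all genes (0.0605% higher and 0.022% lower). Atp8b4 was 0.59 ± 0.19 apart (adjusted p = 0.325, limma, unadjusted p = 0.00679, 95% interval 0.19 to 0.98) without overlap, and Pdlim4 was 0.54 ± 0.24 apart (adjusted p = 0.564, unadjusted p = 0.0417, interval 0.02 to 1.06) with overlap. App (0.16 ± 0.29, interval -0.46 to 0.78) and Arhgap29 (0.14 ± 0.25, interval -0.40 to 0.68) overlapped too. R397W array 2 was the highest of its group for 3 of the genes, and without it, a setting singled out after seeing the data, the Atp8b4 difference was 0.32, and Atp8b4 and Pdlim4 were still called in R397W against A384T cells.

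**Figure D2:**
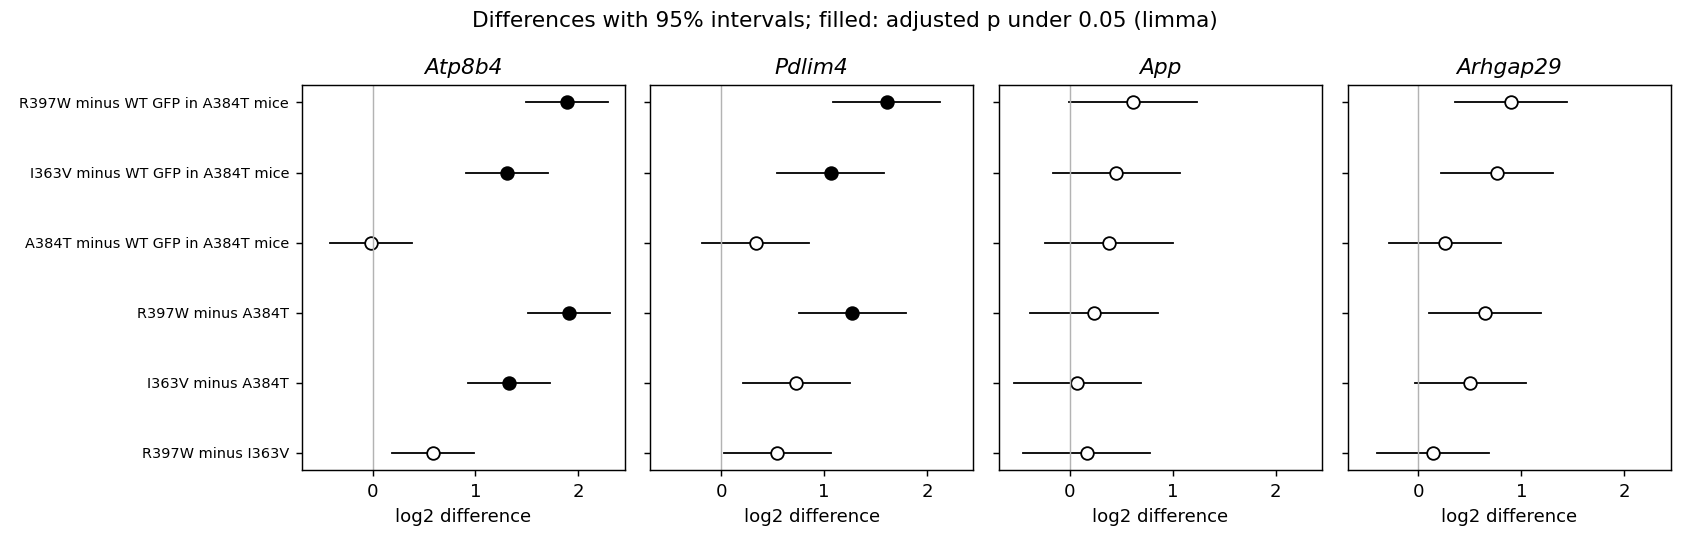
Log2 differences (horizontal axis) with 95% intervals from limma for the 4 genes in 6 comparisons (vertical axis), each named as the first group minus the second, with filled points for an adjusted p under 0.05. Atp8b4 is filled in 4 comparisons and Pdlim4 in 3, and the differences of A384T cells from WT GFP cells of A384T mice lie between -0.02 and 0.38.

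How much of the fall each mutant kept was expressed as its mean below Tconv over the WT hCD2 mean below Tconv, in percent of log2 units. The SDs cover the mutant arrays alone, with the WT hCD2 and Tconv means held fixed, and so understate the uncertainty of a share. WT hCD2 arrays took part in the choice of the genes, so these shares and the differences from WT hCD2 are given without a test. Atp8b4 kept 65.0% ± 10.1 in R397W, 77.6% ± 4.0 in I363V and 106.0% ± 2.6 in A384T cells (SD over 3 arrays). Pdlim4 kept 68.7% ± 8.8 in R397W, 81.2% ± 10.6 in I363V and 98.0% ± 1.6 in A384T cells. Even in R397W cells Atp8b4 was thus 8.11-fold and Pdlim4 7.93-fold below Tconv cells.

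App kept 91.0% ± 18.5 of its fall in R397W, 94.9% ± 3.5 in I363V and 96.6% ± 2.5 in A384T cells (SD over 3 arrays). The R397W share depended on array 2 and was 101.6% without it. With the mean of the App probe sets the I363V share was 89.2%, and the other App shares moved by less than their SD. The WT hCD2 arrays of App lay apart. Without WT hCD2 array 3 its shares were 83.9%, 87.5% and 89.0%, and without array 4 they were 99.4%, 103.6% and 105.5%. Arhgap29 kept 56.4% ± 12.9 in R397W, 60.4% ± 2.0 in I363V and 75.1% ± 17.2 in A384T cells. The Arhgap29 shares depend on which wild-type cells are taken: measured against WT GFP in A384T mice they were 68.4%, 73.2% and 91.0%. As plain differences, A384T minus WT hCD2 was -0.28 ± 0.21 for Atp8b4, 0.09 ± 0.27 for Pdlim4, 0.15 ± 0.32 for App and 0.86 ± 0.28 for Arhgap29. R397W minus WT hCD2 was 1.63 ± 0.21, 1.36 ± 0.27, 0.38 ± 0.32 and 1.50 ± 0.28 in the same order of genes, and I363V minus WT hCD2 was 1.04 ± 0.21, 0.82 ± 0.27, 0.22 ± 0.32 and 1.36 ± 0.28.

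The 100 genes with the largest wild-type fall, the 4 genes among them, give the setting for these shares. Their median share was 69.2% in R397W (quartiles 43.8% to 91.9%), 72.8% in I363V (56.6% to 92.0%) and 96.4% in A384T cells (78.0% to 110.6%). The 100 genes are not all genes of conventional T cells. Among them are the CD8 T and NK markers Prf1 and Eomes, the MHC class II gene H2-Aa and the immunoglobulin gene Igha. These kept 106.9%, 83.2%, 108.9% and 159.7% in R397W cells, and the part of such genes in the median was not tested. Atp8b4 and Pdlim4 lay inside these quartiles in each mutant. App was in the upper part for R397W and I363V, above 73 and 78 of the 100 genes, and Arhgap29 in the lower part, above 36, 32 and 21 of the 100 genes in R397W, I363V and A384T cells.

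**Figure D3:**
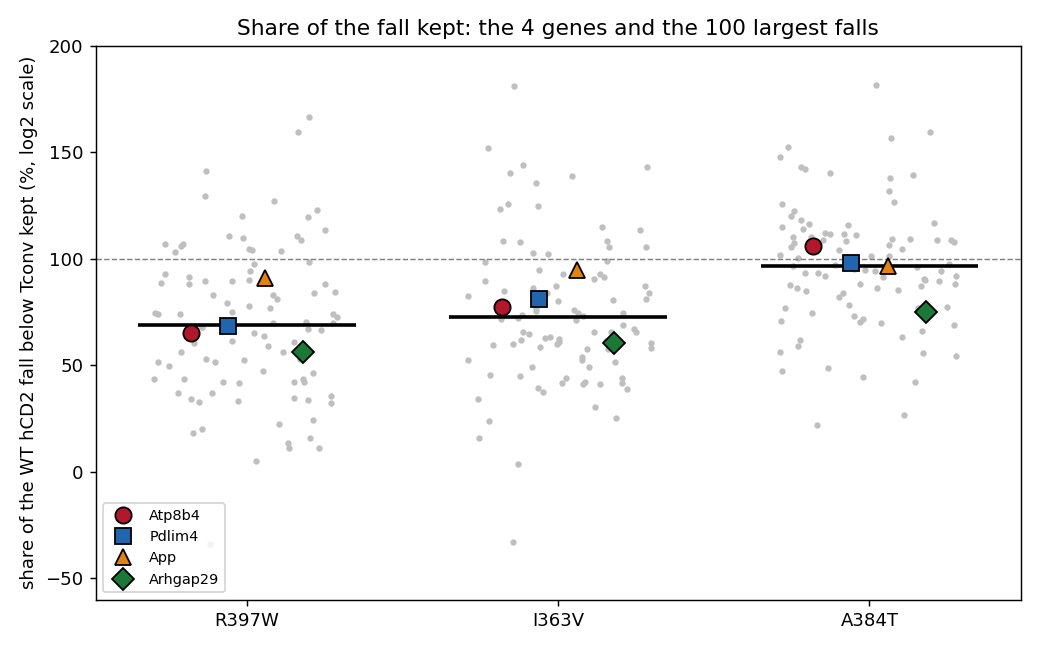
Share of the WT hCD2 fall below Tconv kept in R397W, I363V and A384T cells (vertical axis, percent of log2 units), with large symbols for the 4 genes, grey points for the others of the 100 genes with the largest wild-type fall and a black line for the median of all 100. 1 grey point lies outside the axis. By the main probe set of each gene, the mean share of App is 94.9% in I363V and 96.6% in A384T cells. In R397W cells it is 91.0% with an SD of 18.5, and 101.6% without array 2. Atp8b4 and Pdlim4 stand at 65.0% and 68.7% in R397W and at 106.0% and 98.0% in A384T cells.

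The genes have 10 probe sets in all, and the values above are from the one with the largest variance over all arrays, a choice that also saw the mutants. The second Atp8b4 probe set fell far less, and R397W and I363V again lay above A384T and wild-type Treg cells, here without separating from each other: its values were -0.47 to -0.32 in R397W and -0.42 to -0.31 in I363V cells, against -0.76 to -0.58 in A384T and -0.87 to -0.58 in all wild-type Treg cells. A second App probe set was at -1.63 to -1.24 in R397W and -1.42 to -1.18 in I363V cells. It was at -1.47 to -1.43 in A384T and -1.82 to -1.42 in wild-type Treg cells, and all I363V arrays lay above all A384T arrays. Its group means were -1.40 in R397W, -1.28 in I363V and -1.45 in A384T cells. They were -1.73 in WT hCD2, -1.57 in WT GFP in A384T mice and -1.47 in WT GFP cells. By this probe set the mean of each mutant thus lay above that of WT hCD2 cells, and furthest in I363V cells. Shares of the fall were not computed for it alone. The other App probe sets stayed within 0.35 of Tconv. The other Arhgap29 probe sets had group means of -0.83 to 0.02 in Treg cells. With the mean of the probe sets of each gene, Arhgap29 was called higher in R397W cells than in WT GFP cells of A384T mice (0.38 ± 0.09, adjusted p = 0.0213, limma). Pdlim4 has 1 probe set.

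**Figure D4:**
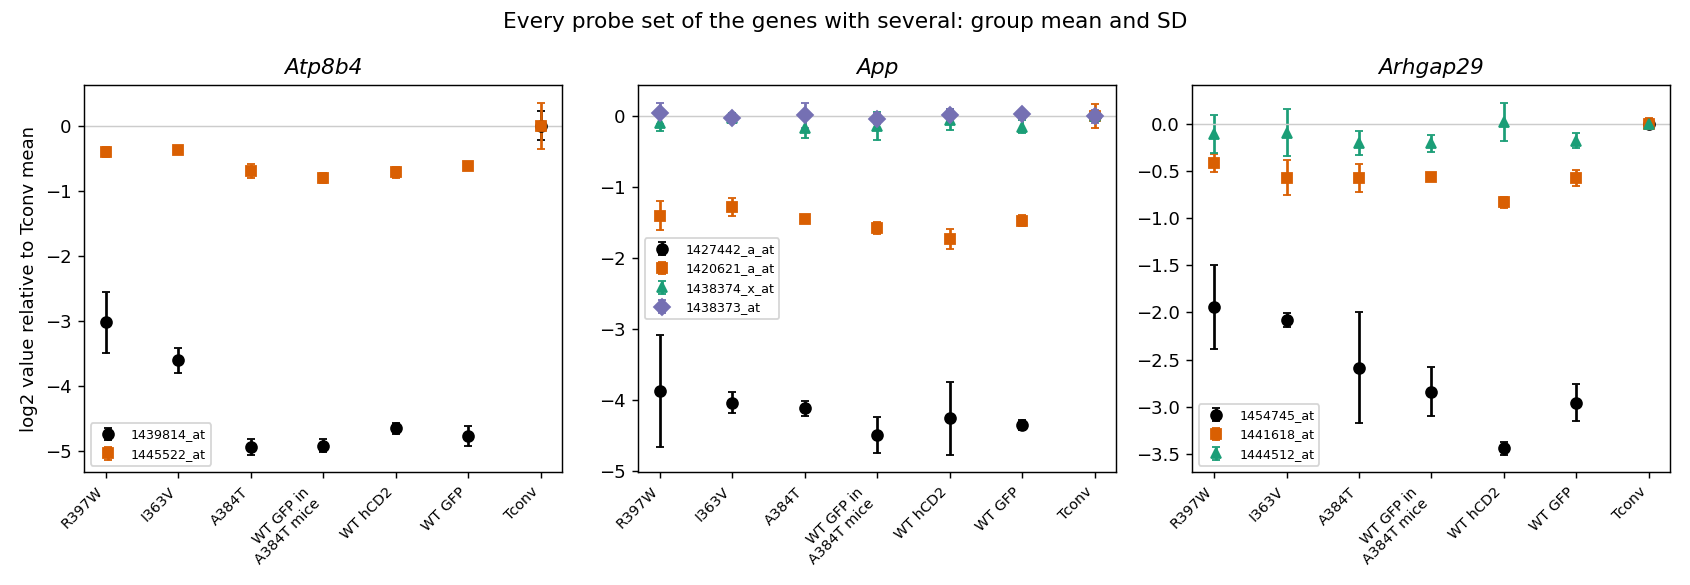
Group mean and ± 1 SD of the log2 value relative to Tconv (vertical axis) for every probe set of Atp8b4, App and Arhgap29 in the 7 groups. The probe set with the largest variance (black circles) falls furthest in each gene, which the choice by variance over all arrays favours. Both Atp8b4 probe sets are higher in R397W and I363V than in A384T cells.

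Relatives and partners of Atp8b4, Pdlim4 and App gave few calls, and without a replicate block those between Treg groups were all in the lower direction. Of 16 measured lipid flippases, chaperone subunits and scramblases (18 listed), 1 was higher and 1 lower in wild-type Treg than in Tconv cells, where 3.81% of all genes were called higher and 2.03% lower (5.84% in all). The flippase Atp9a was higher in wild-type Treg cells (1.12 ± 0.23, adjusted p = 0.0085, limma) and lower in R397W (-1.43 ± 0.22, adjusted p = 0.00197) and I363V cells (-1.38 ± 0.22, adjusted p = 0.00475) than in A384T cells, which is opposite in sign to Atp8b4. In I363V cells 2 of 16 genes were lower than in A384T cells, where 0.885% of all genes were, and the same 2 genes were lower than in WT GFP cells of A384T mice, where 1.95% were: Atp9a and the scramblase Xkr8 (-0.84 ± 0.14 against A384T, adjusted p = 0.00694, limma). The median of the list was -0.28 in R397W and -0.01 in I363V minus A384T. Of 16 PDZ-LIM, LIM and actinin genes 0 were called between wild-type Treg and Tconv cells by limma. In R397W minus A384T 1 of the 16 was lower, the alpha-actinin Actn2 (-0.83 ± 0.20, adjusted p = 0.0363, limma), where 2.22% of all genes were.

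Among 22 measured relatives, proteases and adaptors of App (23 listed), the App-like protein Aplp1 was higher in wild-type Treg cells (0.65 ± 0.17, adjusted p = 0.0304, limma). It was lower in R397W (-1.05 ± 0.16, adjusted p = 0.000871) and I363V cells (-0.90 ± 0.16, adjusted p = 0.00491) than in WT GFP cells of A384T mice. The presenilin Psen2 was lower in both mutants as well (-0.96 ± 0.25 in R397W and -1.12 ± 0.25 in I363V cells), so that 2 of 22 genes were called lower in each, where 4.48% of all genes were lower in R397W and 1.95% in I363V cells. With the replicate block, 0 genes of the App list were higher and 2 lower in A384T cells than in WT GFP cells of A384T mice. The counts were 0 and 1 for the flippases and 3 and 1 for the PDZ-LIM, LIM and actinin genes. Of all genes 1.81% were called higher and 3.42% lower in that blocked fit. Without the block 0 of the genes in these lists were called by limma.

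Many effector and memory genes were lower in the mutants. Of 12 measured effector and memory genes (13 listed), 10, 9 and 4 were lower and 0 higher in R397W, I363V and A384T cells than in WT GFP cells of A384T mice, with medians of -2.04, -1.65 and -0.92. Of all genes 4.48%, 1.95% and 0.352% were called lower there, and with the replicate block 10 of the 12 genes were lower in A384T cells, where 3.42% of all genes were. Klrg1, a lectin receptor of effector cells, differed by -4.54 ± 0.38 in R397W, -4.17 ± 0.38 in I363V and -3.93 ± 0.38 in A384T cells. Also called lower in A384T cells were Itgb1, an integrin chain (-1.66 ± 0.32), and S100a4 (-2.53 ± 0.31) and S100a6 (-2.79 ± 0.30), which bind calcium. Of 9 measured naive T cell genes (11 listed), Dapl1 (1.05 ± 0.26, adjusted p = 0.0282, limma) and Satb1 (1.86 ± 0.46, adjusted p = 0.0278) were higher in R397W cells, where 1.61% of all genes were, and the median of the list was -0.04. In I363V and A384T cells 0 of the 9 genes were called by limma (medians 0.14 and -0.00). With the replicate block 3 were higher and 1 lower in A384T cells, where 1.81% of all genes were called higher and 3.42% lower.

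Some markers of other cells differed between the Treg groups. Over 7 myeloid markers the array means were -1.255 to -1.042 in R397W, -0.305 to -0.084 in I363V, -0.875 to 0.25 in A384T and -0.52 to 0.59 in WT GFP cells of A384T mice, and Lyz2 was called lower in R397W cells. Over 6 B cell markers they were -0.02 to 0.43 in R397W, -0.31 to -0.17 in I363V, -0.01 to 0.18 in A384T and -0.16 to 0.32 in WT GFP cells of A384T mice, with Cd22 lower in I363V and Ms4a1 higher and Cd79b lower in R397W cells. Of 6 CD8 T and NK markers, Nkg7 alone was called against A384T cells, lower in R397W (-2.02 ± 0.36) and I363V cells (-2.01 ± 0.36). Of all genes 2.22% and 0.885% were called lower there. The median of the list was of opposite sign, 0.123 in R397W and 0.133 in I363V minus A384T. Of the T cell identity genes Cd3e was lower in R397W than in A384T cells (-0.77 ± 0.18, adjusted p = 0.0283, limma), and 0 of 5 dendritic, 4 erythroid and 7 stromal and endothelial markers were called between Treg groups by limma (of all genes, 3.13% were called in R397W minus A384T and 6.09% in R397W minus WT GFP in A384T mice). With the replicate block 4 of 7 myeloid markers were lower and 2 of 6 CD8 T and NK markers higher in A384T cells than in WT GFP cells of A384T mice, and 0 of the other markers were called. In that blocked fit 1.81% of all genes were called higher and 3.42% lower. The part of these cells in the results was not tested.

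Across the 16 Treg arrays the 4 genes varied together to different degrees, as a description over arrays that share groups and replicate structure. Pearson's r was 0.82 between Atp8b4 and Pdlim4, 0.76 between Atp8b4 and Arhgap29, 0.64 between Pdlim4 and Arhgap29, and 0.31 to 0.59 between App and the others. Of the 955 genes whose Treg group means span at least 1 on the log2 scale, those most like Atp8b4 were the semaphorin Sema4a (r = 0.98), the IL-36 receptor Il1rl2 (0.94), A530021J07Rik (0.94), the cytokine Il21 (0.92) and Themis (0.91). Their wild-type falls ranked 81, 9, 19, 30 and 68 in that order, and how many of the 955 genes rank as high was not counted. Those most like Pdlim4 were Lypd6b (0.92), the chemokine Ccl20 (0.91), the gamma-glutamyltransferase Ggt5 (0.89), Il21 (0.89) and Slc16a5 (0.89).

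The genes most like App were Pyroxd2 (r = 0.80), the heat shock protein gene Hspa1a (0.80), the sialyltransferase St8sia1 (0.72), the heparan sulfate sulfotransferase Hs3st3b1 (0.70) and Dzip1 (0.68) over the 16 Treg arrays. Hspa1a hardly differed between wild-type Treg and Tconv cells (-0.08), and Ccl20 likewise (0.01). Arhgap29 was most like the transcription factor Sox4 (0.88), Prr5l (0.86), the sialyltransferase St3gal6 (0.86), Tdrp (0.85) and A530021J07Rik (0.83).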

How the data were processed

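RNA of sorted CD4 T cells from mice was hybridised to 18 GeneChip arrays of 45101 probe sets. The deposited values are log2 intensities that the authors obtained with RMA, per the submitters' processing notes; its software and version are not given in the sources used here, and the log base follows the convention of RMA. The deposited values are centred on the Tconv arrays (no probe set's sum over these exceeds 1e-06), so no filter on dim probe sets was possible.

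By the chip annotation, 34945 probe sets have 1 gene, 932 more than 1 and 9160 no gene; 64 control probe sets were dropped; symbols were updated by Entrez identifier for 34741 probe sets. Each of 18193 genes was represented by its probe set of largest variance. Listed genes without a value were not analysed here, and 1 of the gene lists is not reported here. Group means were fitted with limma 3.58.1 in R 4.3.3 (11 residual and 3.3 prior degrees of freedom), without blocks, and p-values were adjusted by Benjamini-Hochberg over all genes, with calls at 0.05. Tables and plots were made with Python 3.11.15, pandas 2.3.3, scipy 1.17.1 and matplotlib 3.10.9.

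The members and lists were chosen with earlier results of these data known. The genes named beside them were, for each list, those called between Treg groups (at most 4 by size of change), the genes with larger falls, and the 5 genes of highest correlation with each member. For A384T and WT GFP in A384T mice, arrays of equal number correlated by 0.69, 0.65 and 0.58 in their deviations from the group means, which meets the bar for pairing although no label gives one; the fit without the block was kept as the main one, and the blocked value is given beside it where it changes a call. The scripts were tested on simulated data. Alternatives were the mean of probe sets, fits of only the groups compared, robust moderation, array weights, median centring, replicate blocks and leaving out each array.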

Additional observations from a re-analysis of the deposited data

How the results depend on the processing

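Of 144 differences of the 4 genes under settings other than leaving out an array, 135 kept direction and side of the threshold. Median centring, robust moderation and array weights changed none of them. The exceptions were these. With the mean of probe sets Atp8b4 was 0.045 in A384T minus WT GFP in A384T mice, and Arhgap29 passed in R397W minus WT GFP in A384T mice (0.38). Fits of only the groups compared lost Pdlim4 in I363V minus WT GFP in A384T mice (1.07). The replicate block was fitted on only the groups compared, so that it changes both choices. It gave App 0.38 in A384T minus WT GFP in A384T mice (passed). In the other comparisons equal numbers did not pair the arrays (correlations -0.32 to 0.34), and with the replicate block calls were lost for Atp8b4 in I363V minus A384T (1.32), R397W minus A384T (1.91) and I363V minus WT GFP in A384T mice (1.31) and for Pdlim4 in R397W minus A384T (1.27) and I363V minus WT GFP in A384T mice (1.07, already lost without the block); it changed no other call of the 4 genes.

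Leaving out 1 array in turn gave, for A384T minus WT GFP in A384T mice, -0.077 to 0.054 for Atp8b4 and -0.01 to 0.57 for Arhgap29 (-0.009 without A384T array 2). App ranged from -0.21 to 0.52 in R397W minus A384T and from -0.29 to 0.45 in R397W minus I363V, where Arhgap29 ranged from -0.088 to 0.356. Pdlim4 ranged from 0.83 to 1.29 in I363V minus WT GFP in A384T mice, and Arhgap29 from 0.67 to 1.12 in R397W minus WT GFP in A384T mice. The cause was not tested.

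Shares of the fall kept moved beyond their SD with WT GFP in A384T mice as wild type: Atp8b4 73.4% in I363V and 100.3% in A384T, Pdlim4 92.7% in A384T, App 89.9% in I363V and 91.6% in A384T, and Arhgap29 73.2% in I363V. With the mean of WT GFP and WT hCD2 they were 95.9% for Pdlim4 in A384T and 65.0% for Arhgap29 in I363V, and with the mean of probe sets 89.2% for App and 64.6% for Arhgap29 in I363V. Leaving out an array gave 87.5% to 103.6% for App in I363V and 89.0% to 105.5% in A384T.

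Counts of all genes called higher and lower were 31 and 64 in A384T minus WT GFP in A384T mice, 46 and 161 in I363V minus A384T, 165 and 404 in R397W minus A384T, 11 and 4 in R397W minus I363V, 61 and 355 in I363V minus WT GFP in A384T mice, and 293 and 815 in R397W minus WT GFP in A384T mice. With the replicate block, again on only the groups compared, they were 330 and 622, 6 and 23, 6 and 42, 0 and 1, 14 and 67, and 50 and 182 in that order. With array weights they were 77 and 147 in A384T minus WT GFP in A384T mice, 104 and 251 in I363V minus A384T, 7 lower in R397W minus I363V, and 157 and 534 in I363V minus WT GFP in A384T mice. Fits of only the groups compared gave 102 lower in A384T minus WT GFP in A384T mice, 66 and 232 in R397W minus A384T and 0 higher in R397W minus I363V (775 at an unadjusted p under 0.05 with limma on all arrays), and the mean of probe sets gave 1 and 2 in R397W minus I363V. Without 1 array the ranges were 15 to 23 and 24 to 76, 21 to 33 and 92 to 128, 63 to 236 and 186 to 411, 0 to 27 and 1 to 30, 25 to 47 and 177 to 343, and 125 to 396 and 398 to 826 in the same order.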
